A study of Homo sapiens with 10 samples.

Results

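The 4 libraries of the A549 line carrying the ABCA3 variant E292V and of the wild-type line (WT) were compared, out of 10 libraries and 5 lines in the series. A549 cells are an established line from a human adenocarcinoma of the lung, widely used as a model of alveolar epithelium. Per the labels, the E292V line (genotype ABCA3 E292V) and the WT line were each sequenced once untreated and once after overnight exposure to LV-ABCA3:GFP, a lentivirus with a VSVG envelope that encodes an ABCA3 and GFP fusion (multiplicity of infection 20). The untreated E292V library was set against the untreated WT library and the transduced E292V library against the transduced WT library. The other 6 libraries were untreated and transduced samples of 3 further lines, labelled ABCA3 knockout (KO), L101P and E690K, and they served to estimate the spread and as a second reference. Each genotype is represented by 1 line and each line and treatment by 1 library, so a difference between E292V and WT describes these 2 lines, and the variant, the history of the line and its culture cannot be told apart. The labels do not say whether a line is a single clone or whether libraries came from separate cultures. The p-values rest on how unevenly the untreated and transduced libraries differed across the 5 lines, the pair labelled KO included. No replicate library entered this spread, which may be technical.

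ABCA3 is a lipid transporter in the limiting membrane of lamellar bodies, the organelles in which alveolar type 2 cells store surfactant. It moves phospholipids into these organelles, and inherited loss of its function causes surfactant deficiency and interstitial lung disease. Lamellar bodies are made along the endosomal and lysosomal route, and their contents depend on phospholipid and cholesterol supply. The gene groups described here cover those routes as well as the matrix, the enzymes and the epithelial identity genes of A549 cells.

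Library totals were 78862939 and 94845294 counts for untreated and transduced E292V and 83544281 and 81249003 for WT. Mitochondrial genes took 4.27% to 5.24% of the counts of these 4 libraries. The 12 epithelial genes listed for A549 were each at 1 CPM (counts scaled to the library total) or more in all 4 libraries and summed to 19000 to 23423 CPM. Of 7 endothelial markers, the sum was at most 0.503 CPM, and the 8 immune markers summed to 25.8 to 32.1 CPM. Markers of alveolar type 2 cells were partly absent: SFTPA1, SFTPA2 and SFTPB had 0 to 7 counts per library, and SFTPC and SFTPD at most 28 counts, in the 4 libraries. No difference between the lines was detectable in these surfactant protein genes at this depth.

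The ABCA3 row stood at 992 CPM (95% Wilson interval 982 to 1002) in untreated and 1035 CPM (1026 to 1044) in transduced E292V, and at 362 CPM (356 to 368) and 610 CPM (603 to 618) in the WT libraries. The row was thus 2.74 times as high in E292V as in WT in the untreated pair and 1.69 times as high in the transduced pair. The fitted log2 difference was 1.00 (SE 0.78) and did not pass the test (adjusted p = 0.759). Without the pair of libraries labelled KO it was 1.08 with an adjusted p of 0.0348. In that pair the label order was reversed: ABCA3 stood at 601 CPM in the library labelled untreated and 25.8 CPM in the one labelled transduced, and EGFP at 37.9 and 0.049 CPM. The vector itself carries ABCA3, and counts from the vector and from the cells' own gene cannot be told apart in this row. EGFP was counted in the untreated libraries too, at 20.7 CPM in E292V and 70.9 CPM in WT, and at 66.8 and 153 CPM in the transduced ones. A row for tdTomato, which the labels do not mention, held 8.98 and 7.51 CPM in E292V and 3.88 and 2.90 CPM in WT. The intervals take 2 counts as 1 read pair, because 81.4% of the counts from 1 to 10 were even, and they cover counting error only.

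Across 17187 autosomal genes tested, 121 differed between E292V and WT with the same direction in both pairs, which is 0.704%. Of these, 51 were higher in E292V (0.297%) and 70 were lower (0.407%). The higher genes included the matrix genes VCAN, PXDN and COL1A1, the contractile gene TAGLN and the cell surface gene PCDH7. The lower genes included the metabolic enzymes CES1 and CPS1 and the epithelial genes CDH17, FCGBP and SPDEF. These groupings were made after the values were seen and were not tested. The median log2 difference over all autosomal genes was 0.00, and 32 of the higher and 25 of the lower genes differed by more than 2-fold in the fit. All but 1 of the called genes (120 of 121) had no overlap between the 2 E292V and the 2 WT libraries, against 6681 of the 17187 genes tested. The exception was CCDC80, chosen here after its values were seen, with 64.7 and 106 CPM in E292V and 41.4 and 69.1 CPM in WT. The calls were made on these same libraries, so the lack of overlap follows largely from the selection. It is no separate support for a difference, here or for single genes below.

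**Figure D1:**
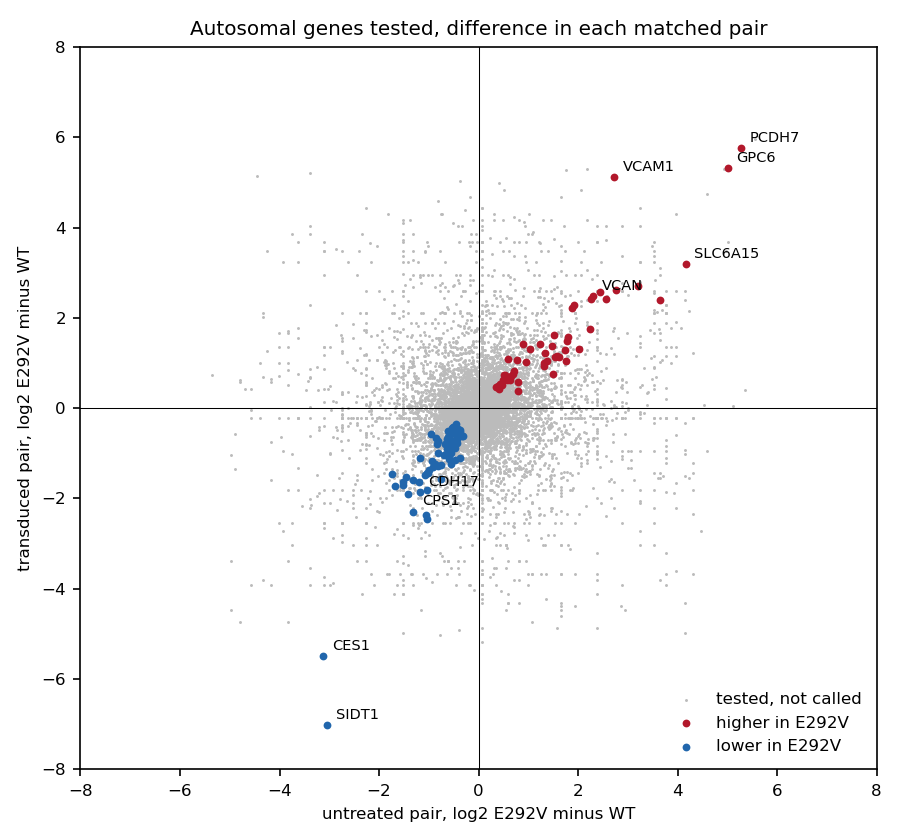
Log2 difference of E292V and WT in the untreated pair (horizontal axis) and in the transduced pair (vertical axis) for each autosomal gene tested, with 1 count added to each library. The 51 red points (higher) lie in the upper right quadrant and the 70 blue points (lower) in the lower left, as the call required the same sign in both pairs.

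The number of calls moved with the libraries that entered the fit. It was 60 without the pair labelled KO, 561 when the L101P pair was left out and 39 when the E690K pair was. Fits without the untreated E292V, the transduced E292V, the untreated WT or the transduced WT library called 256, 14, 10 and 64 genes, where the remaining single library of a line was assumed to vary like the other lines. Without the KO pair 57 of the 121 genes kept their call, as did 57 with the KO labels exchanged and 74 with no vector term. VCAN, PADI2, CPS1 and MYO15B passed under all 17 other settings. CES1 and PCDH7 passed under the 16 settings in which they were tested. Of the 121 genes, 111 also passed under both limma voom and the DESeq2 Wald test, an intersection chosen after the data were seen.

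**Figure D2:**
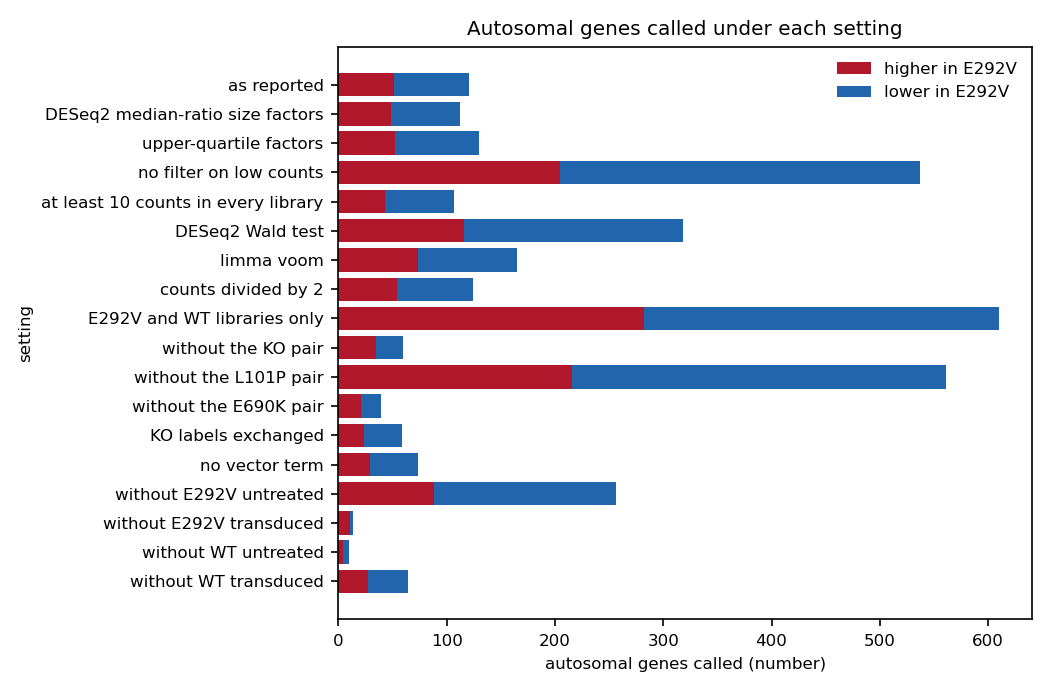
Number of autosomal genes called in E292V against WT (horizontal axis) under the reported setting and 17 others, split into higher (red) and lower (blue). The bars run from 10 genes without the untreated WT library to 610 genes when the E292V and WT libraries alone were fitted.

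Promoter sequences of 3 called genes are shown here, as the 250 bases before the gene start in RefSeq (GRCh38.p14), 5′ to 3′ on the gene's strand. PCDH7 (chr4:30720119-30720368, plus strand) and COL12A1 (chr6:75206054-75206303, minus strand) rose, and CPS1 (chr2:210593105-210593354, plus strand) fell. RefSeq's start for CPS1 lies within the longer gene body of GENCODE release 29, so this window is not upstream of that annotation. Capitals mark a match to a searched motif on either strand.
PCDH7: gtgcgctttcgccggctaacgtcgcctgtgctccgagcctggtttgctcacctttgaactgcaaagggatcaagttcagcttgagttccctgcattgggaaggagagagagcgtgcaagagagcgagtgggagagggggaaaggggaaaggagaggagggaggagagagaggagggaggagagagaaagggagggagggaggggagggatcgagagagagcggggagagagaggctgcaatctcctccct
COL12A1: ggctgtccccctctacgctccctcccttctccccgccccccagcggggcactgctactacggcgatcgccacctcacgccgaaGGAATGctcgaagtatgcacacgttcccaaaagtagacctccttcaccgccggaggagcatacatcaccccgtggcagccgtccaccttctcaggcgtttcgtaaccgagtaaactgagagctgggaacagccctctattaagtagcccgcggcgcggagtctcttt
CPS1: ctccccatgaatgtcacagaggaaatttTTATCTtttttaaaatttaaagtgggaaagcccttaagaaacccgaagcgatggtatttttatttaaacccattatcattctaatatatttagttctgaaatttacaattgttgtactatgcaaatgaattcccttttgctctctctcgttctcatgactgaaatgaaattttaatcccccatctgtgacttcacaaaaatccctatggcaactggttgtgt
In COL12A1 the capitals are the TEAD motif GGAATG, and in CPS1 they are the GATA motif AGATAA on the opposite strand. PCDH7 held neither of these, nor the AP-1 motif TGANTCA or the FOXA motif TGTTTAC. Over 11551 promoter windows of tested genes that were searched, 9.53% held the TEAD motif, 5.11% the GATA motif, 4.30% the AP-1 motif and 2.12% the FOXA motif. Among the called genes with a window, the TEAD motif was present in 4 of 36 higher and 4 of 45 lower genes, the GATA motif in 0 and 4, the AP-1 motif in 2 and 2, and the FOXA motif in none of either. A match is a run of letters in this window and not a mapped binding site.

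A group of 5 matrix and contractile genes rose in E292V, by 2.15 to 5.25 times in the fit. In bulk RNA, more cells that express a gene and more RNA per cell cannot be told apart. VCAN (ENSG00000038427.15, chr5:83471465-83582303) encodes versican, a large chondroitin sulfate proteoglycan that binds hyaluronan. It stood at 47.8 and 63.8 CPM in untreated and transduced E292V and at 9.58 and 11.5 CPM in WT. Both E292V libraries lay above both WT libraries, by a log2 difference of 2.30 in the untreated and 2.47 in the transduced pair, and the fitted value was 2.39 (SE 0.15, adjusted p = 1.55e-05). COL1A1 (chr17:50183289-50201632), the alpha 1 chain of type I collagen, stood at 74.3 and 118 CPM against 26.4 and 45.5 CPM in WT. Its fitted log2 difference was 1.42 (SE 0.26, adjusted p = 0.0214), and the groups did not overlap. PXDN (chr2:1631887-1744852) encodes peroxidasin, a heme peroxidase that cross-links collagen IV in basement membranes. It stood at 44.3 and 78.9 CPM in E292V and at 10.9 and 31.9 CPM in WT, with a fitted log2 difference of 1.62 (SE 0.22, adjusted p = 0.00884). The transduced WT library was closer to E292V than the untreated one. PXDN lost its call with the KO labels exchanged (adjusted p = 0.162), with no vector term (adjusted p = 0.220) and without the untreated WT library (adjusted p = 0.0679).

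COL12A1 (chr6:75084326-75206051), a collagen that associates with type I collagen fibrils, stood at 36.4 and 38.7 CPM in E292V against 14.5 and 20.3 CPM in WT (log2 1.11, SE 0.14, adjusted p = 0.00631). TAGLN (chr11:117199321-117204782) encodes transgelin, an actin-binding protein of smooth muscle and stressed epithelial cells. It stood at 18.0 and 22.5 CPM in E292V and 5.22 and 8.01 CPM in WT (log2 1.62, SE 0.21, adjusted p = 0.00717). Its row overlaps PCSK7 on the other strand, which was 3.13 times as high on average, and the use of strand in counting is not given in the sources used here. All 5 genes kept their call without the KO pair, without the untreated E292V library and without the transduced WT library. Without the E690K pair COL1A1 lost it, without the transduced E292V library COL1A1 and TAGLN, and without the untreated WT library all but VCAN.

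The 10 fibroblast markers summed to 100 and 151 CPM in untreated and transduced E292V and to 48.0 and 68.3 CPM in WT, and 3 of 10 were at 1 CPM or more in each library (COL1A1, THY1 and LUM). COL1A1 supplied most of each sum. DCN and POSTN, which mark fibroblasts, had 0 counts in all 4 libraries, and COL1A2, the partner chain of type I collagen, was at most 0.279 CPM. THY1 stood at 22.1 and 29.1 CPM in E292V and 18.9 and 20.5 CPM in WT and did not pass the test (adjusted p = 0.496).

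**Figure D3:**
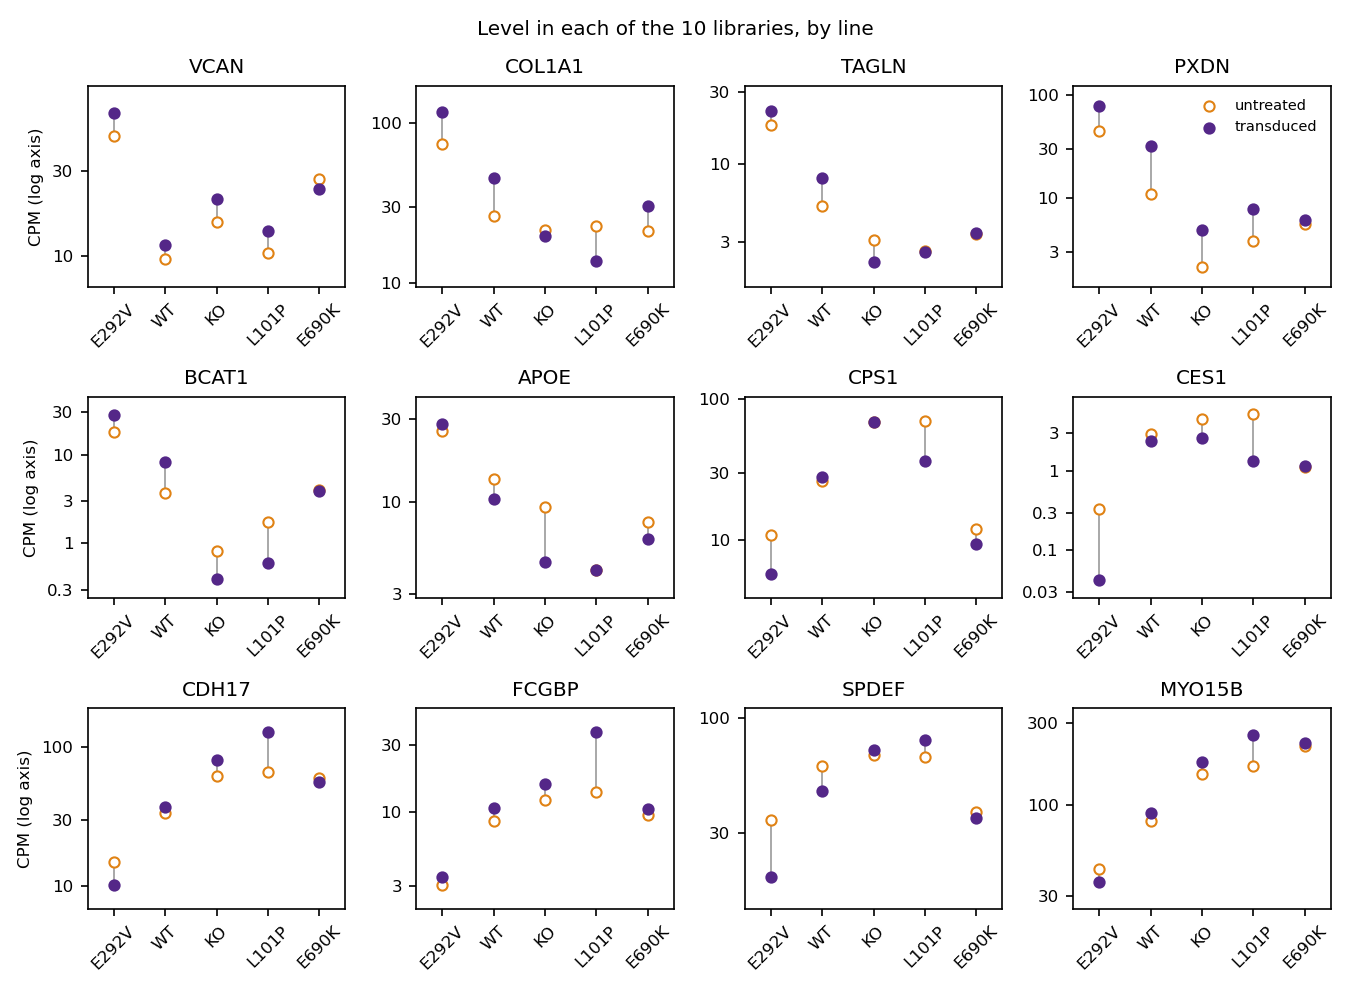
Level in CPM (log axis) of 12 genes in each of the 10 libraries, by line, with open circles for untreated and filled circles for transduced libraries joined by a line. In E292V, VCAN reaches 47.8 and 63.8 CPM while the other 8 libraries lie between 9.58 and 27.1 CPM, and CES1 lies at 0.33 and 0.042 CPM while the others lie between 1.11 and 5.15 CPM.

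A further 12 genes for surface, secreted and transport proteins were higher in E292V at low levels. They averaged under 1 on the log2 CPM scale, outside the rule for named genes, and were chosen after their values were seen. With at least 10 counts required in every library, only 6 of the 12 were tested. PCDH7 (chr4:30720415-31146805), a protocadherin of cell-cell contacts, had 630 and 944 counts in E292V and 16 and 14 counts in WT, or 7.99 and 9.95 CPM against 0.192 and 0.172 CPM. The fitted log2 difference was 5.62 (SE 0.57, adjusted p = 0.00185), the largest positive one among called autosomal genes, and the 2 lines did not overlap. GPC6, a glypican that carries heparan sulfate at the cell surface, stood at 1.93 and 3.43 CPM in E292V, and WT had 4 and 6 counts (log2 5.47, SE 0.82, adjusted p = 0.0121). In the other edited lines GPC6 lay at 0 to 0.083 CPM, so it passed the low-count filter only through the E292V libraries. Its call is therefore no separate support for a difference. VCAM1, an adhesion molecule for leukocyte integrins, had 132 and 525 counts against 20 and 12 (log2 4.08, SE 0.69, adjusted p = 0.0211). The E292V values of VCAM1 were 1.67 and 5.54 CPM, so the transduced library was the higher one. SLC6A15, a transporter of neutral amino acids, stood at 6.06 and 4.39 CPM against 0.323 and 0.468 CPM (log2 3.63, adjusted p = 0.0151).

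SLC16A7, a carrier of pyruvate and lactate, stood at 4.40 and 6.39 CPM in E292V and at 0.335 and 1.21 CPM in WT (log2 3.04, adjusted p = 0.0236). GPR37, an orphan receptor, stood at 4.36 and 3.27 CPM against 0.455 and 0.492 CPM (log2 3.01, adjusted p = 0.00884). The remaining 6 were CDH6 (log2 2.73), KCNJ16 (2.57), ADGRV1 (2.51), ADAMTS9 (2.36), ANKRD30A (2.08) and BCHE (1.69). They cover a cadherin, a potassium channel subunit, an adhesion receptor, a metalloproteinase of the matrix, a breast differentiation antigen and butyrylcholinesterase. ADGRV1 overlaps LYSMD3 and LUCAT1, which were 6.31 and 3.62 times as high. Of these 12 genes, 9 kept their call without the KO pair (CDH6, ADAMTS9 and KCNJ16 did not), 6 without the E690K pair, and 7, 3, 2 and 3 without the untreated E292V, transduced E292V, untreated WT and transduced WT library.

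The other higher genes were named by a rule that took the 14 largest differences among the 37 higher genes with an average of at least 1 on the log2 CPM scale (0.322% of 11482 genes), and APOC1 was added for its position after its values were seen. BCAT1 (chr12:24810022-24949459) starts the breakdown of branched-chain amino acids in the cytosol. It stood at 17.9 and 27.8 CPM in E292V and 3.73 and 8.25 CPM in WT, with a log2 difference of 1.93 (SE 0.42) that was just inside the threshold (adjusted p = 0.0498). PADI2, which converts peptidyl arginine to citrulline, stood at 33.1 and 30.1 CPM against 13.8 and 11.2 CPM (log2 1.33, SE 0.19, adjusted p = 0.00884). RASGRF2, an exchange factor for Ras and Rac, stood at 14.3 and 18.4 CPM against 4.23 and 7.54 CPM (log2 1.48, SE 0.21, adjusted p = 0.00884). It overlaps CKMT2-AS1 on the other strand, which was 0.413 times as high. MYOM3, a myomesin of the sarcomere M-band, stood at 7.76 and 7.19 CPM against 2.27 and 3.51 CPM (log2 1.39, SE 0.20, adjusted p = 0.00884). FZD8, a Wnt receptor, stood at 13.7 and 9.62 CPM against 4.69 and 4.36 CPM (log2 1.37, SE 0.29, adjusted p = 0.0414).

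APOE and APOC1, lipoprotein components whose genes lie 4.85 kb apart, both rose. APOE stood at 25.7 and 28.0 CPM in E292V and 13.7 and 10.5 CPM in WT (log2 1.17, SE 0.22, adjusted p = 0.0227). APOC1, which has a near-identical pseudogene that may share its reads, stood at 29.2 and 32.9 CPM against 19.1 and 15.5 CPM (log2 0.86, SE 0.18, adjusted p = 0.0435). ABCA12, the lipid transporter of epidermal lamellar granules and a relative of ABCA3, stood at 2.83 and 3.93 CPM against 1.10 and 1.67 CPM (log2 1.28, SE 0.25, adjusted p = 0.031). SYT6, ADAM22 and RRAD, a synaptotagmin, a catalytically inactive ADAM protein and a small GTPase, had log2 differences of 1.57, 1.39 and 1.20. With the KO labels exchanged, 3 of the 11 genes of this group kept their call. BCAT1, APOE, APOC1, ABCA12, SYT6, ADAM22, FZD8 and RRAD lost it there. With no vector term, 4 of the 11 kept it. Of these 11 genes 6 lost their call without the KO pair (BCAT1, APOC1, ABCA12, SYT6, ADAM22 and RRAD), 8 without the E690K pair, 3 without the untreated E292V library, 8 without the transduced one, 10 without the untreated WT library and 7 without the transduced one.

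**Figure D4:**
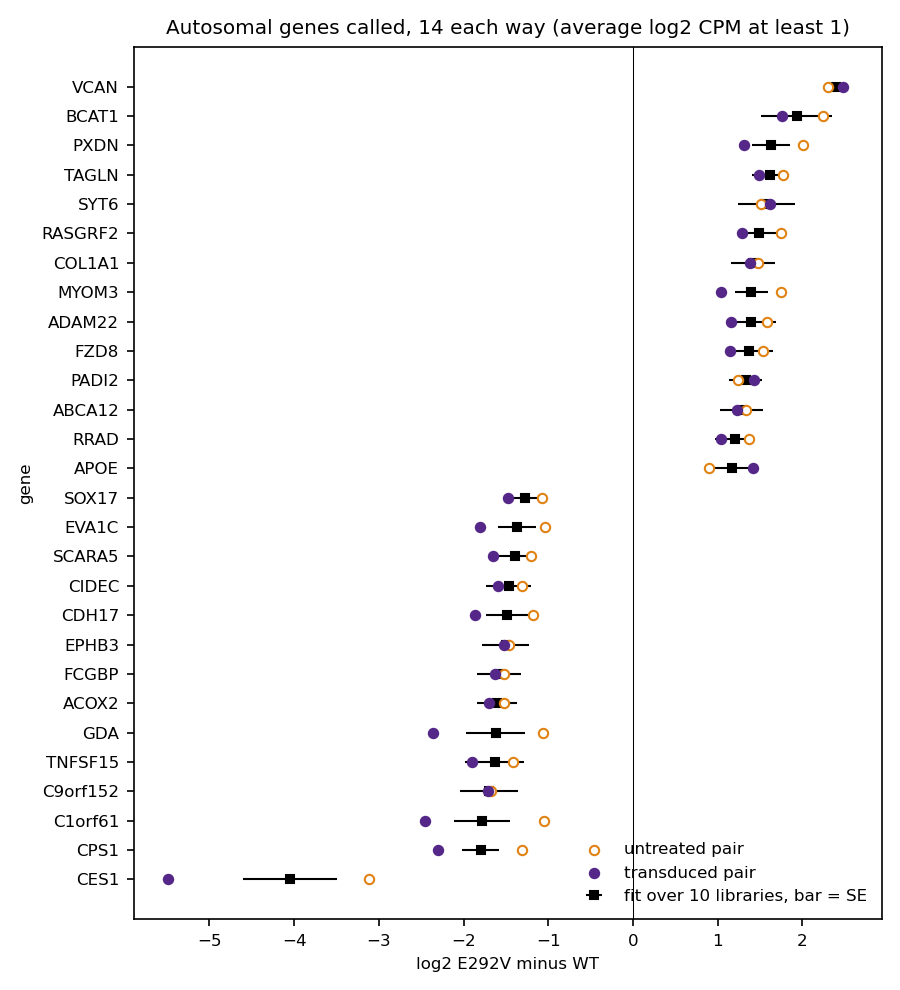
Log2 difference of E292V and WT for the 14 higher and 14 lower autosomal genes named by size, with open circles for the untreated pair, filled circles for the transduced pair, and black squares with bars for the fitted value and its SE. The fitted values run from 1.17 (APOE) to 2.39 (VCAN) above zero and from -1.28 (SOX17) to -4.05 (CES1) below it.

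Among the lower genes the rule took 14 of 68 with an average of at least 1 on the log2 CPM scale (0.592% of 11482 genes), and 7 of the lower genes named by the rule or by a list were enzymes or lipid proteins. CES1 (chr16:55802851-55833337), a carboxylesterase that hydrolyses esters, drugs and stored lipids, had 26 and 4 counts in E292V and 245 and 192 in WT. These are 0.330 and 0.042 CPM against 2.93 and 2.36 CPM, and the fitted log2 difference was -4.05 (SE 0.56, adjusted p = 0.00884). A near-identical pseudogene may share the reads of CES1. CPS1 (chr2:210477682-210679107), the mitochondrial enzyme that starts the urea cycle, stood at 10.8 and 5.71 CPM in E292V and 26.4 and 28.2 CPM in WT (log2 -1.80, SE 0.22, adjusted p = 0.00515). Both E292V libraries lay below both WT libraries, and the transduced one was the lowest of the 4.

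ACOX2, a peroxisomal oxidase of branched fatty acids and bile acid precursors, stood at 3.27 and 1.86 CPM against 9.31 and 6.08 CPM (log2 -1.60, SE 0.24, adjusted p = 0.00895). GDA, guanine deaminase, stood at 3.12 and 1.64 CPM against 6.46 and 8.49 CPM (log2 -1.62, SE 0.35, adjusted p = 0.0491). CIDEC, a protein of lipid droplets, stood at 0.850 and 0.854 CPM against 2.11 and 2.61 CPM (log2 -1.46, SE 0.27, adjusted p = 0.0211). The fitted log2 differences of CYP2S1 and AKR1C1, enzymes of xenobiotic metabolism at higher levels, were smaller. CYP2S1, a cytochrome P450 of epithelia, stood at 84.0 and 65.9 CPM against 125 and 123 CPM (log2 -0.74, SE 0.11, adjusted p = 0.00884). AKR1C1, an aldo-keto reductase with close paralogs that may share reads, stood at 108 and 94.7 CPM against 167 and 153 CPM (log2 -0.66, SE 0.12, adjusted p = 0.0197). GDA, CIDEC and AKR1C1 lost their call without the KO pair and without the E690K pair. Of the 7 genes, 2 (CES1 and CPS1) kept their call without the transduced E292V library and 2 without the untreated WT library, 5 without the transduced WT library and all 7 without the untreated E292V library.

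A group of 8 lower genes, put together after the values were seen, encodes proteins found in intestinal, mucosal or early endodermal epithelium or, for SCARA5 and TNFSF15, in several tissues. CDH17, the liver-intestine cadherin, stood at 14.8 and 10.1 CPM in E292V and 33.3 and 37.1 CPM in WT (log2 -1.49, SE 0.25, adjusted p = 0.015). FCGBP, a mucus protein of goblet cells, stood at 3.03 and 3.43 CPM against 8.62 and 10.7 CPM (log2 -1.58, SE 0.26, adjusted p = 0.015). SPDEF, a transcription factor of goblet cell differentiation, stood at 34.4 and 18.9 CPM against 60.2 and 46.4 CPM (log2 -1.02, SE 0.20, adjusted p = 0.0275). The transduced E292V library held the lowest SPDEF level of the 4. SOX17, a transcription factor of definitive endoderm, was at 1.47 and 1.18 CPM against 3.08 and 3.30 CPM (log2 -1.28, adjusted p = 0.0394). HNF4G, a nuclear receptor of gut epithelium, was at 7.86 and 6.09 CPM against 11.1 and 11.2 CPM (log2 -0.70, adjusted p = 0.0311).

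SCARA5, a scavenger receptor that takes up ferritin, stood at 6.75 and 4.15 CPM against 15.4 and 13.1 CPM (log2 -1.40, SE 0.23, adjusted p = 0.0134). EPHB3, an ephrin receptor of intestinal crypts, had a log2 difference of -1.50 and TNFSF15, a cytokine of the TNF family, one of -1.63 (adjusted p = 0.0238 and 0.0495). In the list of 18 airway and alveolar type 1 markers, of which 12 were tested, SPDEF alone passed. The mucin MUC5B stood at 177 and 89.5 CPM in E292V and 205 and 275 CPM in WT (log2 -0.79, SE 0.38, adjusted p = 0.505), and AGR2, a goblet cell disulfide isomerase, at 259 and 164 CPM against 360 and 251 CPM (adjusted p = 0.703). Of the 8 lower genes 3 kept their call without the KO pair (FCGBP, CDH17 and SCARA5), none without the E690K pair, the transduced E292V or the untreated WT library, 4 without the transduced WT library and 7 without the untreated E292V library.

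The carriers and signalling genes described next were put together after their values were seen. The list of membrane channels and carriers held 28 genes, of which 25 were tested, with 1 higher (SLC16A7) and 2 lower (SLC12A2 and SLC40A1) and a median log2 difference of -0.32. SLC12A2, the sodium-potassium-chloride cotransporter, stood at 165 and 122 CPM in E292V and 236 and 222 CPM in WT (log2 -0.68, SE 0.12, adjusted p = 0.0203). SLC40A1, the iron exporter ferroportin, stood at 13.9 and 12.2 CPM against 20.7 and 21.8 CPM (log2 -0.71, SE 0.11, adjusted p = 0.0118). ABCG2, a drug efflux transporter, stood at 53.7 and 38.8 CPM against 66.5 and 59.3 CPM (log2 -0.46, SE 0.09, adjusted p = 0.0374). The hypoxia list of 28 genes held 2 lower genes among 27 tested: CA12, a carbonic anhydrase, at 396 and 336 CPM against 532 and 532 CPM (log2 -0.55, adjusted p = 0.0103), and NDRG1, a stress-responsive gene, at 36.7 and 35.7 CPM against 55.3 and 56.0 CPM (log2 -0.63, adjusted p = 0.00515). The glycolytic members GAPDH, ENO1 and PKM had log2 differences of -0.09, -0.08 and -0.07 and did not pass (adjusted p = 0.77, 0.768 and 0.807). ID1, a target of bone morphogenetic protein signalling, stood at 243 and 201 CPM against 349 and 273 CPM (log2 -0.49, adjusted p = 0.0318), and HLA-C, whose reads may be shared with other HLA genes, at 39.0 and 40.0 CPM against 52.5 and 51.4 CPM (log2 -0.40, adjusted p = 0.0379).

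The chemokine CCL2 was higher in E292V, at 9.74 and 15.7 CPM against 4.98 and 7.70 CPM (log2 0.99, SE 0.21, adjusted p = 0.0394). Of these 8 carriers and signalling genes, SLC40A1, CA12 and NDRG1 kept their call without the KO pair, and the same number kept it without the E690K pair. None kept it without the transduced E292V library and 1 without the untreated WT library, against 3 without the transduced WT and 7 without the untreated E292V library. The last 4 lower genes described were C1orf61, C9orf152 and EVA1C, with log2 differences of -1.78, -1.70 and -1.37, and MYO15B, an unconventional myosin gene, at 43.3 and 36.5 CPM against 81.3 and 91.0 CPM (log2 -1.11, SE 0.14, adjusted p = 0.00698). C1orf61 and C9orf152 lost their call without the KO pair, and with EVA1C they lost it without the E690K pair or the transduced E292V library. C9orf152 and EVA1C lost it without the untreated WT library and C1orf61 without the transduced one.

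The 33 gene lists held 708 genes, and 19 lists had at least 1 called member. Counts are given beside the share over all autosomal genes of 0.704%, and the lists were chosen with earlier results in view, so they carry no test. The basement membrane and collagen list had 3 higher genes, with PXDN and COL12A1 among them, and 0 lower ones among 27 tested, with 21 above zero and a median log2 difference of 0.35, against 0.00 over all genes. The collagen IV chain COL4A2 in this list stood at 502 and 584 CPM against 303 and 480 CPM and did not pass (log2 0.48, adjusted p = 0.229). The proteoglycan and hyaluronan list had 2 higher genes (VCAN and GPC6) among 18 tested and a median of 0.15. Of these, GPC6 passed the low-count filter only through the E292V libraries. The xenobiotic list had 3 lower genes (CYP2S1, AKR1C1 and ABCG2) among 29 tested, 25 below zero and a median of -0.28. AKR1C2 stood at 1995 and 1454 CPM in E292V and 2785 and 2272 CPM in WT and missed the threshold (log2 -0.56, adjusted p = 0.0587).

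No member passed in the list of epithelial-mesenchymal state among 19 tested, where the median was 0.28. Vimentin (VIM) stood at 460 and 623 CPM in E292V and 378 and 448 CPM in WT (log2 0.38, adjusted p = 0.0967), and the transcription factor SNAI2, named after its value was seen, at 1.60 and 3.50 CPM against 0.766 and 1.13 CPM (log2 1.38, adjusted p = 0.055). The alveolar type 2 list had 0 calls among 15 tested and a median of -0.01. LPCAT1, which remodels surfactant phosphatidylcholine, stood at 132 and 144 CPM against 111 and 127 CPM (log2 0.21, adjusted p = 0.265). The list for fatty acid and phospholipid synthesis had 0 calls among 27, with a median of 0.04, and the cholesterol list had a median of 0.10 over 23 tested. The stearoyl-CoA desaturase SCD stood at 786 and 925 CPM against 640 and 744 CPM and did not pass (adjusted p = 0.338).

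The unfolded protein and degradation list, which holds the chaperones that handle misfolded membrane proteins, had 0 calls among 28 tested and a median of 0.04. Its chaperone HSPA5 stood at 615 and 617 CPM in E292V and 568 and 616 CPM in WT (log2 0.05, SE 0.09, adjusted p = 0.909). The lysosome and autophagy list had 0 calls among 24 and a median of -0.06, and the protease CTSL, at 158 and 161 CPM against 206 and 209 CPM, missed the threshold (log2 -0.39, adjusted p = 0.0587). The p53, YAP and TEAD target, S phase and mitosis, serine and one-carbon, growth factor receptor, Wnt and Notch, and neuronal cytoskeleton lists also had no call. The S phase and mitosis list had a median of -0.01, and its member MKI67 stood at 700 and 677 CPM against 620 and 755 CPM.

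**Figure D5:**
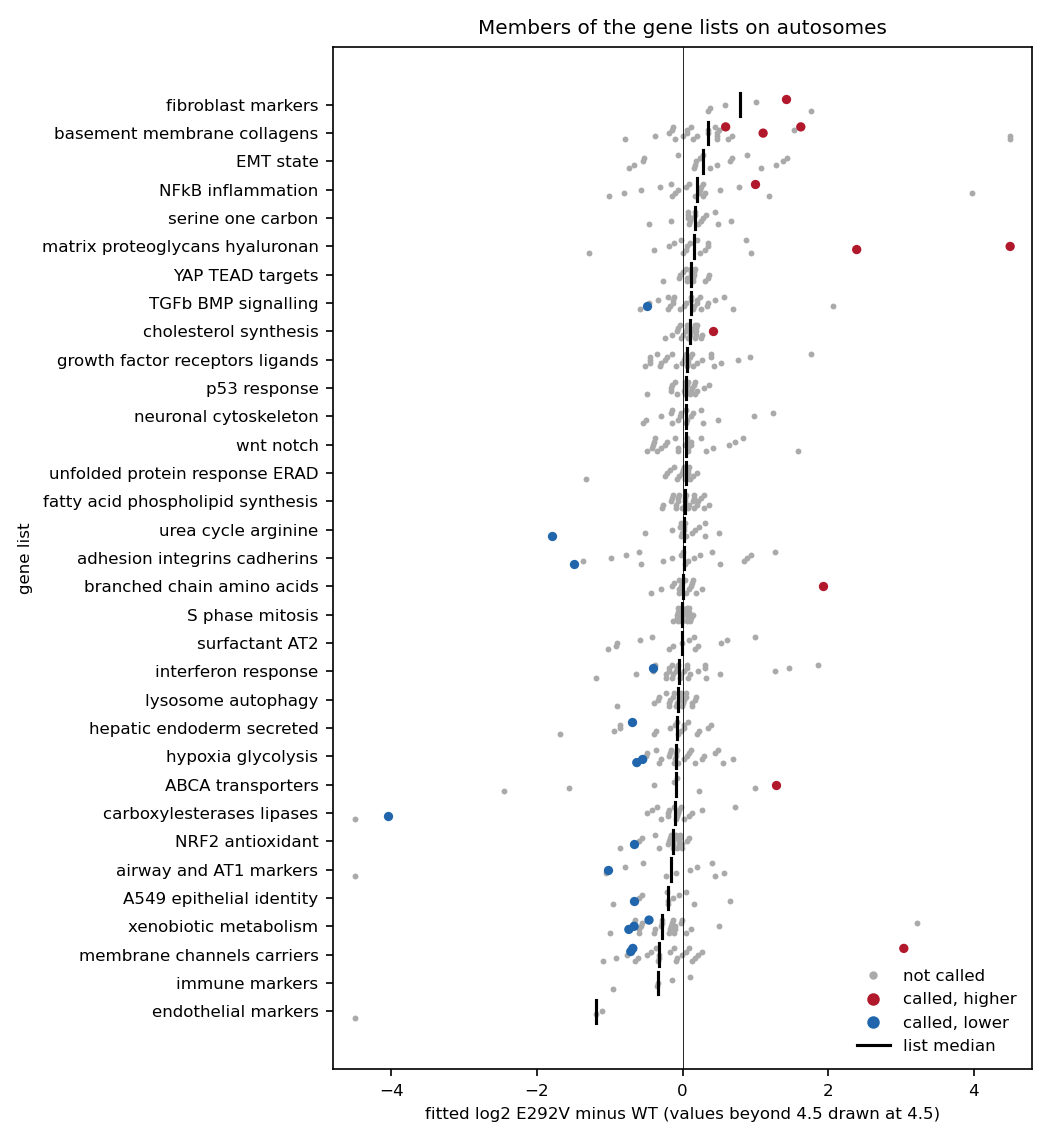
Fitted log2 difference of E292V and WT for the tested autosomal members of each gene list, sorted by the list median (black bar), with grey points for genes that did not pass, red for higher and blue for lower calls. The basement membrane and collagen list has its median at 0.35 and the xenobiotic list at -0.28, and most lists lie near 0.

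Set against the mean of the KO, L101P and E690K lines, E292V had more autosomal calls than against WT. Of 17187 tested, 2889 passed (16.8%), 1378 higher (8.02%) and 1511 lower (8.79%) in E292V. These calls share the E292V libraries with the comparison against WT. The reference held 6 libraries here and 2 for WT, which makes it more precise, so the numbers of calls do not measure distance. In 8 of the 10 genes named for the largest differences, both WT libraries also lay outside the range of the 6 other libraries. In those 8 genes they lay on the side of E292V, and CES1 and KRT6A were the exceptions. The 10 genes were picked for their distance from the same 6 libraries, and the share over all tested genes is not given here. The count is therefore not a result about these genes. GFRA1, a co-receptor for glial-derived neurotrophic factor, stood at 6.75 and 23.6 CPM in E292V, 7.66 and 19.0 CPM in WT and at most 0.461 CPM in the 6 other libraries. The log2 difference from the other edited lines was 9.55 (SE 0.30, adjusted p = 3.34e-08), and that from WT was 0.07 (adjusted p = 0.956). DPYSL3, a protein of growing neurites, stood at 108 and 450 CPM in E292V, 66.7 and 204 CPM in WT and at most 4.68 CPM in the others (log2 6.84, SE 0.35, adjusted p = 6.03e-07). In both genes the transduced libraries of E292V and of WT were higher than the untreated ones.

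The adaptor APBB1IP, the matrix glycoprotein TINAGL1 and the receptor FLRT2 had log2 differences of 6.58, 4.92 and 4.57 from the other edited lines and of 1.00, 0.51 and 1.29 from WT, the latter without a call (adjusted p = 0.64, 0.741 and 0.195). On the lower side the mucosal peptide TFF1 stood at 1.98 and 0.654 CPM in E292V, 2.82 and 2.58 CPM in WT and 17.6 to 106 CPM in the others (log2 -4.89, SE 0.61, adjusted p = 0.000177). CEACAM6, an adhesion molecule of epithelia, stood at 38.3 and 24.2 CPM in E292V, 76.3 and 91.9 CPM in WT and 230 to 1015 CPM in the others (log2 -4.34, SE 0.47, adjusted p = 6.3e-05). The keratins KRT16 and KRT6A had log2 differences of -3.85 and -3.75 from the other edited lines, and CES1 one of -3.83. CEACAM6, KRT16 and KRT6A have close paralogs with which reads may be shared.

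The genes that separated E292V from WT had these levels in the other edited lines. VCAN reached 10.4 to 27.1 CPM in the 6 other libraries, below both E292V libraries, and PCDH7 at most 0.107 CPM. COL1A1 lay between 13.8 and 30.3 CPM and TAGLN between 2.23 and 3.48 CPM there. BCAT1 stood at 0.394 to 3.99 CPM in the other edited lines, under the transduced WT level of 8.25 CPM, and PXDN at 2.13 to 7.75 CPM, under both WT libraries. CPS1 split the other lines, with 9.36 to 12.0 CPM in E690K, close to untreated E292V, and 36.6 to 70.7 CPM in the libraries of L101P and KO. Some of the 51 higher genes did not pass against the other edited lines. MYOM3, ABCA12, AKAP12 and the noncoding AP001803.2 had log2 differences of 0.07, 0.09, 0.08 and 0.81 (adjusted p = 0.822, 0.81, 0.423 and 0.0544). AKAP12, a scaffold of protein kinase A, and AP001803.2 were singled out after their values were seen.

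A test of the change in the E292V to WT difference from the untreated to the transduced pair followed. No autosomal gene passed this test among 18390 (0%), and the lowest adjusted p in edgeR's test was 0.144, with 2 residual degrees of freedom and 430 genes at an unadjusted p under 0.05. The DESeq2 Wald test called 2, the fit without a filter 11, the fit lacking the L101P pair 44 and that lacking the E690K pair 8. Of the 70 lower genes 60 had the larger difference in the transduced pair, against 28 of the 51 higher ones. The same share over all tested genes is not given here, so these counts cannot be called particular to the called genes. That pattern across genes was not tested. CPS1 had a log2 difference of -1.31 in the untreated and -2.30 in the transduced pair, and the change of -0.99 (SE 0.29) had an unadjusted p of 0.00219 and an adjusted p of 1. EGFP was lower in E292V than in WT in both pairs, with a ratio of 0.292 in the untreated and 0.437 in the transduced pair, and its part in these differences was not tested.

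Along the autosomes the difference was small and spread out. The 270 windows of 10 Mb each held at least 10 tested genes with an average of at least 1 on the log2 CPM scale. Their medians ran from -0.09 to 0.16 on the log2 scale, and 182 windows had the same sign in both pairs. The highest median was on chromosome 1 from 70 to 80 Mb (19 genes, 0.13 in the untreated and 0.16 in the transduced pair), followed by chromosome 4 from 160 to 170 Mb (15 genes, 0.12) and chromosome 16 from 10 to 20 Mb (49 genes, 0.11). The lowest medians were on chromosome 17 from 20 to 30 Mb (47 genes, -0.09), on chromosome 15 from 90 to 100 Mb (30 genes, -0.08) and on chromosome 17 from 80 Mb (61 genes, -0.08). Of the 105 called genes with that average, none lay in these 6 windows, and no window of the 270 held more than 4. The 16 called genes with a lower average were not placed in windows. Among called genes, 7 neighbouring pairs lay within 500 kb of each other. Of these, 6 had the same direction (among them APOE with APOC1, DMTN with HR, MYO15B with UNC13D, VWA5B2 with EPHB3, and PTK2B with SCARA5), and MEX3A and C1orf61 went opposite ways.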

How the data were processed

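The authors deposited whole-number counts per gene for 33551 rows and 10 libraries, and the submitters' processing notes name featureCounts, Subread, edgeR, limma and GRCh38, without roles or settings. Per the labels' protocols, RNA came from lifted cells and a total-RNA kit. Rows were matched by symbol to GENCODE release 29 on GRCh38 (98.7% matched), which gave chromosomes and coordinates. Promoter sequences came from RefSeq (GRCh38.p14).

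Counts were fitted with edgeR 4.0.16 in R 4.3.3 (filterByExpr, 17978 genes, TMM scaling, factors 0.972 to 1.03). One additive quasi-likelihood model with line and vector as factors, 10 libraries and 4 residual degrees of freedom, gave E292V minus WT and E292V minus the mean of KO, L101P and E690K. Benjamini-Hochberg adjustment ran over all genes tested. A gene was called at an adjusted p under 0.05 with the same sign in both pairs. A model with a term for each pair tested the difference between pairs. Standard errors were the log2 difference divided by the square root of F, and differences within a pair used 1 added count. CPM was the count scaled to the library's total. The biological coefficient of variation was 12.9%.

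Named genes were the 14 higher and 14 lower called autosomal genes with the largest log2 difference and an average log2 CPM of at least 1, the called members of each list with up to 3 of its most abundant other members, 5 higher and 5 lower genes against the other edited lines, and ABCA3, the surfactant protein genes, EGFP and tdTomato. The members, lists and rule were chosen with earlier results of these data known. Genes on X were left out of the report, and some genes that passed are not reported here. In simulated data with 200 changed genes (17463 genes, E292V against WT), 67.2% were recovered at 1.5-fold, 95.5% at 2-fold and 100% at 4-fold, with 8 false calls among 183. Apart from the changed genes, all simulated lines had the same levels, with no vector effect and no reversed pair. The changed genes all had an average log2 CPM of at least 1, and the sign rule was not applied. These rates may therefore not hold for the real libraries. Alternatives were DESeq2 1.42.0, limma 3.58.1 voom, other scalings and filters, and fits without single pairs or libraries.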

Additional observations from a re-analysis of the deposited data

Results flagged for a closer look

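A single gene on any chromosome passed the test of whether the difference between E292V and WT changed from the untreated to the transduced pair. COL4A6, a collagen IV chain gene on the X chromosome, stood at 18.4 and 7.91 CPM in untreated and transduced E292V and at 14.8 and 19.1 CPM in WT, so that E292V was higher than WT in the untreated pair and lower in the transduced one. The change was -1.57 on the log2 scale (SE 0.25, adjusted p = 0.0253), with 2 residual degrees of freedom and 1 library behind each level.

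Genes of the X chromosome were kept out of the report's counts. In the same fit of 17978 genes, 67 of them passed between E292V and WT, out of 189 calls over all chromosomes. Beside them were 121 calls among 17187 autosomal genes tested (0.704%) and 1 unplaced gene. The number of X genes tested is not given here. Even over all 1066 X rows before the low-count filter, the 67 calls are a larger share than the autosomal one. The cause was not tested.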

How the results depend on the processing

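Against the 121 autosomal genes called between E292V and WT, the count was 537 with no filter on low counts, 318 in the DESeq2 Wald test, 610 with the E292V and WT libraries alone (1 residual degree of freedom), 60 without the KO pair, 561 and 39 when the L101P or the E690K pair was left out, 59 with the KO labels exchanged, and 74 with no vector term. Leaving out 1 of the 4 libraries gave 10 to 256. DESeq2 size factors, upper-quartile factors, a minimum of 10 counts, limma voom and halved counts gave 107 to 165. None of the 121 genes changed direction under a setting, and the causes of the moves were not tested. The count of 2889 against the other edited lines was 741 without the transduced E292V library, the lowest of the fits that left out 1 of the 4 libraries (highest 2826), and stayed within 1.5 times under the other settings. The count of 0 for the difference between pairs was 11 with no filter, 2 by DESeq2, and 44 and 8 when the L101P or the E690K pair was left out. The highest window median was 0.10 in windows of 20 Mb. The reported fit pairs libraries by vector status through its vector term, and the labels carry no replicate numbers for another block.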

Other observations

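Genes outside the naming rule, picked here after their values were seen, add to the description of the E292V line. UNC13D, which primes granules for exocytosis, stood at 60.7 and 45.1 CPM in untreated and transduced E292V against 88.7 and 106 CPM (log2 -0.88, adjusted p = 0.00884), and RAB27B, a GTPase of secretory vesicles, at 35.3 and 30.6 CPM against 48.3 and 50.7 CPM (log2 -0.60, adjusted p = 0.0129). PDGFB, a growth factor chain for mesenchymal cells, stood at 20.3 and 33.3 CPM against 11.7 and 15.9 CPM (log2 0.94, adjusted p = 0.0229), and IGFBP2, a binding protein of insulin-like growth factors, at 41.1 and 26.7 CPM against 68.3 and 64.6 CPM (log2 -0.98, adjusted p = 0.0129).

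WLS, which carries Wnt ligands to the cell surface, stood at 25.2 and 27.1 CPM against 14.3 and 18.2 CPM (log2 0.68, adjusted p = 0.015). RNF43, a ligase that removes Wnt receptors, stood at 36.3 and 22.0 CPM against 46.4 and 47.7 CPM (log2 -0.72, adjusted p = 0.0339). PDK4, a kinase that restrains pyruvate oxidation, stood at 38.8 and 24.5 CPM against 62.2 and 50.8 CPM (log2 -0.86, adjusted p = 0.0374), and QPRT, an enzyme of NAD synthesis, at 11.3 and 8.35 CPM against 5.42 and 3.37 CPM (log2 1.17, adjusted p = 0.0152). SIDT1 had 4 and 0 counts in E292V and 42 and 111 counts in WT, and its fitted log2 difference of -5.07 (SE 1.04, adjusted p = 0.0388) depends on the prior count. Of these 9 genes, all lost their call without the transduced E292V library, and all but UNC13D without the untreated WT library. RNF43, PDK4 and SIDT1 also lost it without the KO pair, and with QPRT they lost it with the KO labels exchanged.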
